A study of Homo sapiens with 14 samples.

Results

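Interferon response genes, the genes that cells switch on after an interferon signal, were followed across 14 expression arrays of WI-38, a diploid fibroblast strain from human lung. A list of 39 such genes was looked up by symbol in the array platform's annotation, and 37 of them had a row of their own, of 18377 genes with a single symbol and 28869 rows in all. STAT2 and GBP1 had no row that carries their symbol alone and were not analysed here. The row with the highest mean stood for a gene, but each of the 37 genes had a single row.

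All cells were WI-38, seeded at a fixed number at each weekly passaging. There were 7 groups, each of 2 arrays described as biological duplicates. Primary cells were taken at passage 19. Cells immortalized with hTERT carried the letter A at passage 39 (written A39), passage 50 (A50), passage 58 (A58), passage 67 (A67) and passage 95 (A95), and the letter B at passage 96 (B96). hTERT is the catalytic subunit of telomerase, and every group except primary is labelled as carrying it. The sources used here do not say what the letters mean or how many separate cultures or clones were kept. The p-values of group comparisons therefore measure the spread between arrays of a label, pooled per row over all 7 labels, not only those compared. Those of the trend over passage measure the spread of single arrays around a straight line, which includes departures of labels from that line.

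Interferons are secreted proteins that bind receptors on the same or neighbouring cells and act through JAK kinases and STAT proteins. IRF9 and STAT proteins form a complex that binds a short element in the promoters of many antiviral genes. Those genes encode sensors of viral RNA, proteins that block translation or degrade RNA, proteins of membranes that hinder virus entry or release, and regulators that strengthen or end the response. Fibroblasts both make and answer type I interferon.

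The promoters were searched for the core of that element. Promoter sequences were those of RefSeq on GRCh38.p14, and 29 of the 37 genes matched a promoter there. The core searched was GAAA, 2 bases of any kind, then GAAA, on both strands and in the 250 bases before the gene's start, and overlapping matches were counted. It was present in 17 of the 29 promoters (58.6%), against 839 of 27305 promoters of that length in the table (3.07%). The second motif, TTC, 3 bases of any kind, then GAA, the core bound by STAT dimers, was present in 9 of 29 (31.0%), against 6.78% of all promoters. Windows around the match closest to the start are printed for 4 genes with a wide range of values over the arrays and for 2 with a narrow range, so that both kinds can be read side by side. Capitals mark the matches to the first motif or its reverse complement, and each sequence runs 5′ to 3′ on the gene's strand.
IFITM1, chr11:313975-314034, plus strand: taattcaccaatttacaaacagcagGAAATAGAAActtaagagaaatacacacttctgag
IFI44L, chr1:78620350-78620409, plus strand: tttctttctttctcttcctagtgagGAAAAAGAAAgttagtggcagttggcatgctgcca
IFIT1, chr10:89392495-89392554, plus strand: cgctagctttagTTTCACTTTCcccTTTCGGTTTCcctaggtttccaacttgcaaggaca
IFI6, chr1:27672251-27672310, minus strand: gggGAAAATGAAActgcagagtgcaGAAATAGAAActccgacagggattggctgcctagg
ISG15, chr1:1013365-1013424, plus strand: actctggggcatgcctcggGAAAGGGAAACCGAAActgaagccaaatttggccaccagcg
IFIT5, chr10:89414508-89414567, plus strand: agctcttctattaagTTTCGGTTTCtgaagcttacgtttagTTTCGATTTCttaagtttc
Matches were found in wide and narrow genes alike, in 7 of 12 promoters of genes with a range of at least 2 log2 and in 10 of 17 of the others. MX1, HERC6 and PARP9 had none in this window, which says only that these letters are not there.

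The values are log2 expression values as deposited, and each array is called by its label. Lower RNA per cell and fewer responding cells cannot be told apart in such bulk RNA. Arrays of the same label were not the most alike. By Pearson correlation over all rows, 0 of the 14 arrays had the other array of its label as its closest. For primary, A39, A50, A58 and A95, replicate 2 and replicate 1 of the next label in passage order were each other's closest arrays. The interferon response genes differed by a median of 0.10 to 0.21 log2 within these 5 pairs, sign ignored, against 0.21 to 1.74 within the 7 labels. Whether titles and arrays were matched as intended cannot be settled here, so every group mean, contrast and slope given for a label, in A95 versus A39, B96 versus A95 and the trend as in the comparisons with primary, holds for the arrays as labelled. TERT, which separates hTERT from primary cells, also went against a label. TERT read 10.67 to 12.18 in the 12 arrays labelled hTERT, against 7.07 in the array labelled primary replicate 1 and 11.70 in the array labelled primary replicate 2. The medians of comparisons with primary are therefore given also without each primary array. Array medians lay between 7.26 and 7.48. Fibroblast markers averaged 11.15 to 11.83 per array, against 6.45 to 6.78 for blood and immune cell markers, 7.0 to 7.36 for endothelial and 7.52 to 8.09 for epithelial markers.

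The 37 genes varied more over the arrays than most genes did. They were chosen with earlier results of these data known, so their ranges are given as a description. The median range, highest minus lowest array, was 1.89 log2, against 0.79 for all genes. A range of at least 1 log2 was seen in 30 of the 37 genes, where 30.9% of all genes had one, a range of at least 2 log2 in 15, where 5.43% did, and a range of at least 3 log2 in 8, where 1.51% did. To compare arrays, each gene's mean over the 14 arrays was subtracted, and the median of the 37 deviations was taken. In passage order it was -0.72 and 0.71 in the primary arrays, 0.63 and 0.60 in A39, 0.54 and -0.21 in A50, -0.22 and -0.32 in A58, -0.37 and -0.40 in A67, then -0.50 and 0.31 in A95 and finally 0.14 and -0.27 in B96, replicate 1 before replicate 2. Over all genes that median stayed between -0.07 and 0.05. The genes were therefore high in primary replicate 2, both A39 arrays and A50 replicate 1, low in primary replicate 1, from A50 replicate 2 to A95 replicate 1 and in B96 replicate 2, and intermediate in A95 replicate 2 and B96 replicate 1.

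**Figure D1:**
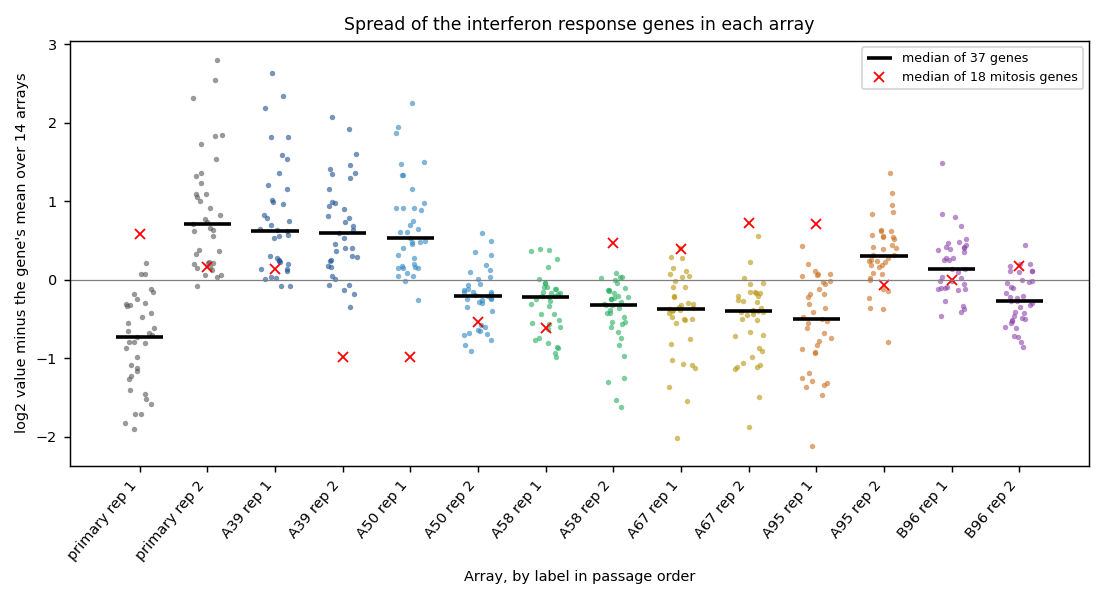
Deviation of each of the 37 interferon response genes from its own mean over the 14 arrays (log2), by array in passage order, with the median of the genes as a bar and the median of 18 mitosis genes as a cross. The bar is lowest in primary replicate 1 (-0.72) and highest in primary replicate 2 (0.71), and the arrays of the labels A50 and A95 lie on both sides of 0.

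Many single genes had their extremes in the primary arrays. Primary replicate 1 was the lowest of the 14 arrays for 16 of the 37 genes, where it was lowest for 8.07% of all genes, and primary replicate 2 the highest for 17, where it was highest for 4.58%. Being lowest in primary replicate 1 was not particular to the 37 genes. Of the related lists described below, it held for 22 of 47 other interferon-induced genes. It also held for 8 of 22 genes of interferon-gamma and antigen presentation. Primary replicate 2 was among the 4 highest arrays for 31 genes, A50 replicate 1 for 27, A39 replicate 1 for 25, A39 replicate 2 for 23 and A95 replicate 2 for 15. Primary replicate 1 and A58 replicate 2 were among the 4 highest for 0 genes. The share of all genes was not counted for the 4 highest arrays, so these counts have no background beside them. As the single highest array, A95 replicate 2 stood for 5 of the 37 genes and for 18.7% of all genes.

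**Figure D2:**
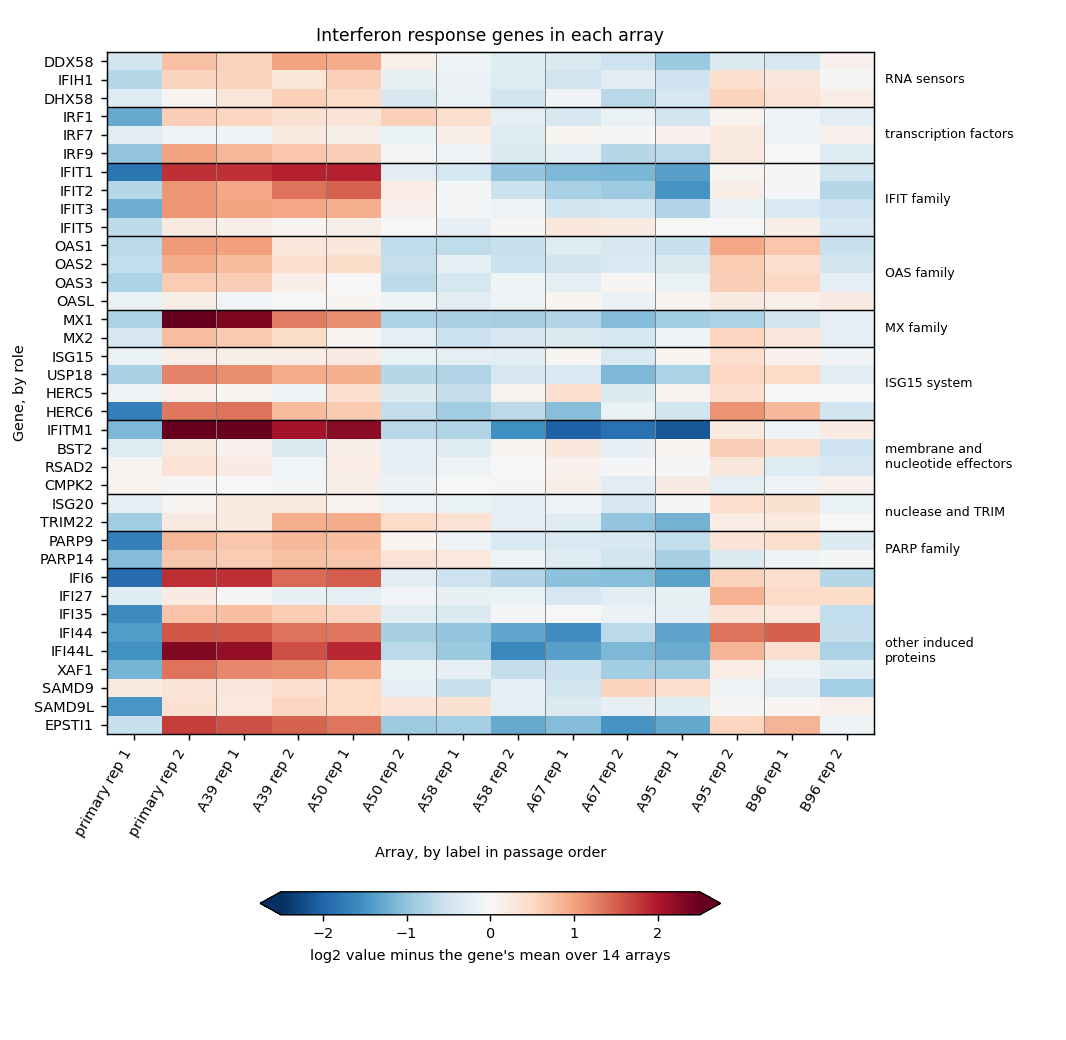
Each of the 37 genes (down, by role) in each of the 14 arrays (across, in passage order), as the log2 value minus the gene's mean over the arrays. Primary replicate 2, both A39 arrays and A50 replicate 1 are red for most genes, while CMPK2, OASL, IRF7 and RSAD2 stay pale throughout.

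Among the RNA sensors, DDX58 encodes RIG-I, which detects viral RNA in the cytoplasm. DDX58 read 8.32 and 9.53 in primary, 9.36 and 9.79 in A39, 9.71 and 8.92 in A50, 8.68 and 8.49 in A58, 8.42 and 8.28 in A67, then 7.87 and 8.42 in A95 and finally 8.38 and 8.90 in B96. Its A95 arrays both lay below its A39 arrays. IFIH1, which encodes the sensor MDA5, ranged over 1.31 log2 and DHX58, which encodes their relative LGP2, over 1.30.

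IRF9, the DNA-binding partner of the STAT complex, read 8.63 and 10.61 in primary, 10.44 and 10.30 in A39, 10.22 and 9.56 in A50, 9.52 and 9.25 in A58, 9.40 and 8.89 in A67, then 8.93 and 9.86 in A95 and finally 9.60 and 9.29 in B96. IRF1, another transcription factor of the response, ranged over 1.89 log2 with its lowest value, 7.52, in primary replicate 1. IRF7, which drives interferon-alpha genes, ranged over 0.57 log2.

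The IFIT genes encode proteins that bind foreign RNA ends and restrain translation. IFIT1 read 7.17 and 10.82 in primary, 10.81 and 10.91 in A39, 10.93 and 8.70 in A50, 8.55 and 8.02 in A58, 7.87 and 7.85 in A67, then 7.63 and 9.06 in A95 and finally 9.01 and 8.49 in B96. Its 4 highest arrays lay between 10.81 and 10.93, and the other 10 lay at or below 9.06. IFIT2 read 6.90 and 8.72 in primary, 8.59 and 8.97 in A39, 9.10 and 7.81 in A50, 7.58 and 7.08 in A58, 6.80 and 6.71 in A67, then 6.15 and 7.79 in A95 and finally 7.57 and 6.91 in B96. IFIT5 stayed between 9.11 and 10.05, although it lies next to IFIT1 on chromosome 10 and its promoter holds the match printed above.

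The oligoadenylate synthetases make the messenger that activates the RNA-degrading enzyme RNase L. OAS1 read 6.85 and 8.59 in primary, 8.55 and 7.82 in A39, 7.81 and 6.89 in A50, 6.90 and 6.97 in A58, 7.23 and 7.12 in A67, then 6.98 and 8.49 in A95 and finally 8.22 and 6.98 in B96. Here A95 replicate 2 and B96 replicate 1 stood as high as the A39 arrays. OAS2 and OAS3, its neighbours on chromosome 12, had ranges of 1.54 and 1.43 log2, and OASL one of 0.50.

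MX1, a GTPase that traps viral nucleoproteins, had another pattern in the late arrays. MX1 read 6.40 and 9.74 in primary, 9.53 and 8.49 in A39, 8.35 and 6.42 in A50, 6.38 and 6.36 in A58, 6.44 and 6.10 in A67, then 6.31 and 6.40 in A95 and finally 6.73 and 6.98 in B96. All arrays other than primary replicate 2, the A39 arrays and A50 replicate 1 lay at or below 6.98. MX2, its neighbour on chromosome 21, read 6.94 in A95 replicate 2, against 7.05 and 6.85 in A39.

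Genes of the ISG15 system attach and remove a ubiquitin-like protein. HERC6, which encodes a HECT-domain ligase, read 5.59 and 8.62 in primary, 8.66 and 8.08 in A39, 7.95 and 6.70 in A50, 6.43 and 6.64 in A58, 6.23 and 7.13 in A67, then 6.80 and 8.41 in A95 and finally 8.10 and 6.81 in B96. USP18, the protease that removes ISG15 and dampens the receptor, ranged over 2.35 log2. ISG15 itself ranged over 0.81 log2, between 7.29 and 8.10, and HERC5, its main human ligase and the neighbour of HERC6 on chromosome 4, over 1.01.

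The widest range belonged to IFITM1, which encodes a membrane protein that hinders virus entry. IFITM1 read 6.70 and 10.62 in primary, 10.45 and 9.90 in A39, 10.07 and 7.13 in A50, 7.06 and 6.29 in A58, 5.80 and 5.95 in A67, then 5.70 and 8.06 in A95 and finally 7.71 and 8.02 in B96, a range of 4.92 log2. In the same class, BST2, which tethers budding virus, ranged over 1.13 log2, RSAD2, which encodes viperin, over 0.79, and CMPK2, a nucleotide kinase next to RSAD2 on chromosome 2, over 0.46. ISG20, an RNA exonuclease, ranged over 0.85 log2. TRIM22, a ubiquitin ligase, read 9.79 and 10.88 in primary, 10.89 and 11.56 in A39, 11.58 and 11.16 in A50, 11.03 and 10.42 in A58, 10.36 and 9.68 in A67, then 9.48 and 10.85 in A95 and finally 10.91 and 10.65 in B96. Unlike IFITM1, TRIM22 was higher in both A50 arrays than in either primary array.

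**Figure D3:**
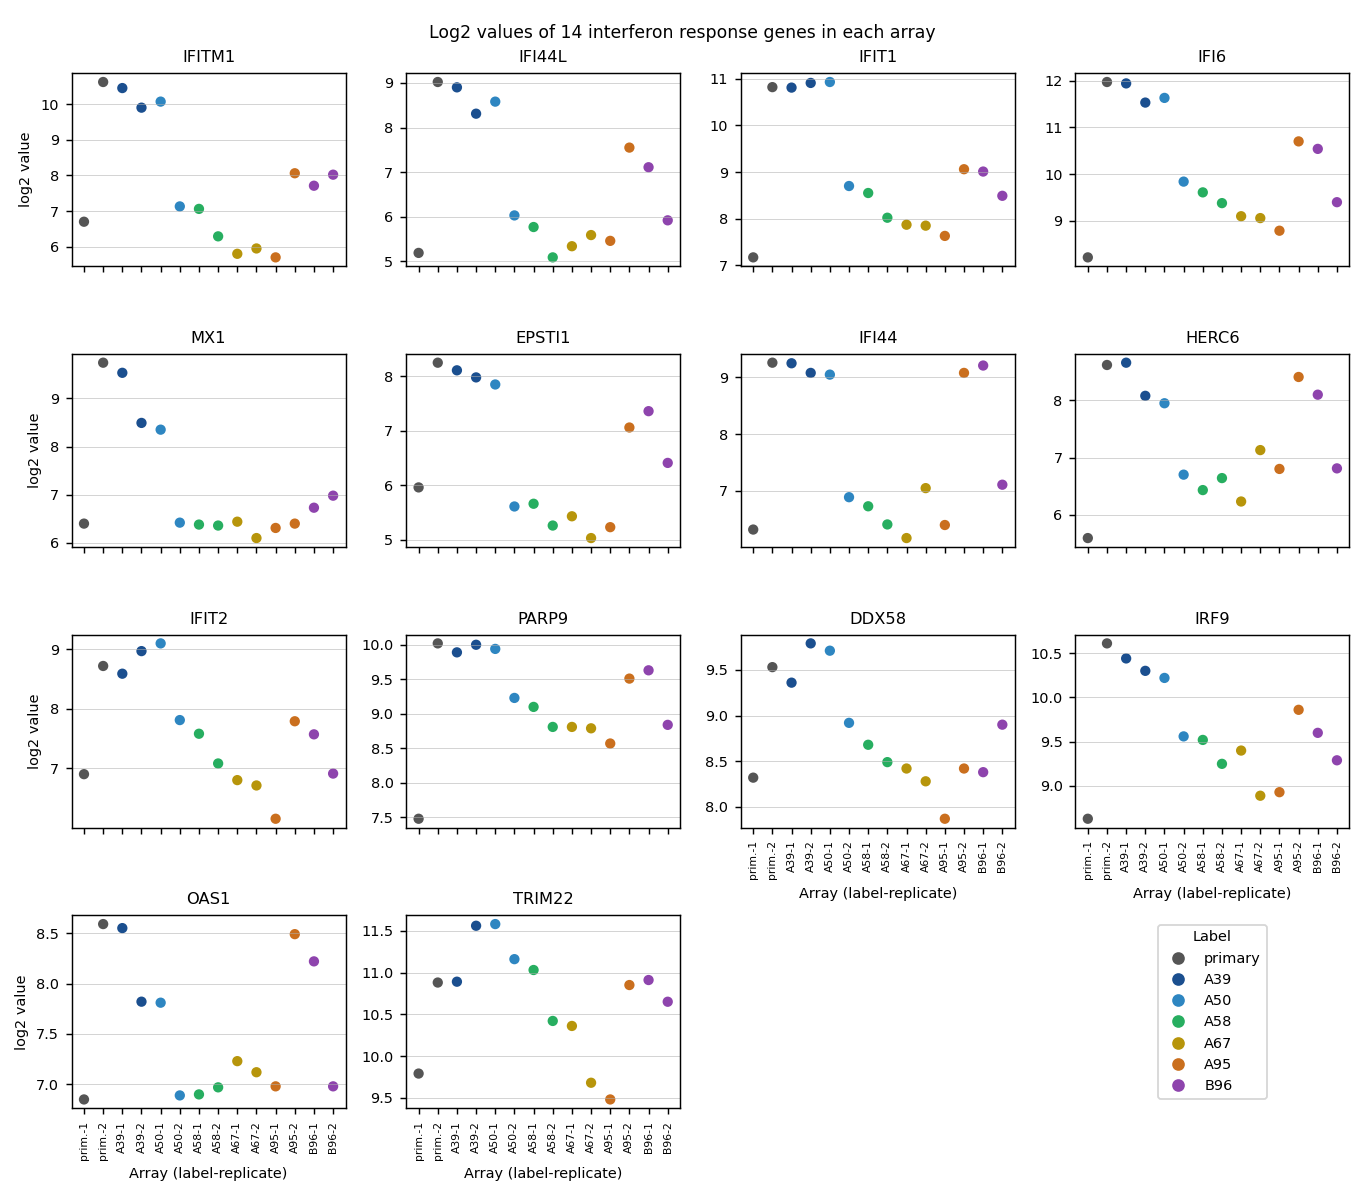
Log2 values of single interferon response genes in each of the 14 arrays, in passage order, with a y axis of its own for each gene that does not start at 0. IFIT1 and IFITM1 are high in primary replicate 2, both A39 arrays and A50 replicate 1, and MX1 stays at or below 6.98 in all other arrays.

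PARP9, an ADP-ribosyltransferase family protein, read 7.48 and 10.02 in primary, 9.89 and 10.00 in A39, 9.94 and 9.23 in A50, 9.10 and 8.81 in A58, 8.81 and 8.79 in A67, then 8.57 and 9.51 in A95 and finally 9.63 and 8.84 in B96. PARP14, of the same family, ranged over 1.82 log2.

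IFI6, a mitochondrial protein that restrains cell death, read 8.22 and 11.97 in primary, 11.94 and 11.53 in A39, 11.63 and 9.84 in A50, 9.61 and 9.38 in A58, 9.10 and 9.06 in A67, then 8.79 and 10.70 in A95 and finally 10.54 and 9.40 in B96. IFI44L read 5.19 and 9.02 in primary, 8.90 and 8.31 in A39, 8.58 and 6.03 in A50, 5.77 and 5.09 in A58, 5.34 and 5.59 in A67, then 5.46 and 7.55 in A95 and finally 7.11 and 5.92 in B96. IFI44, its neighbour on chromosome 1, read 6.32 and 9.26 in primary, 9.25 and 9.08 in A39, 9.05 and 6.89 in A50, 6.73 and 6.41 in A58, 6.17 and 7.05 in A67, then 6.40 and 9.08 in A95 and finally 9.21 and 7.11 in B96. Both neighbours were high in primary replicate 2, the A39 arrays and A50 replicate 1, but in A95 replicate 2 and B96 replicate 1 IFI44 stood at its A39 level and IFI44L below it. EPSTI1 read 5.96 and 8.25 in primary, 8.11 and 7.98 in A39, 7.85 and 5.61 in A50, 5.66 and 5.26 in A58, 5.43 and 5.03 in A67, then 5.23 and 7.06 in A95 and finally 7.36 and 6.41 in B96. SAMD9 and SAMD9L, neighbours on chromosome 7 whose proteins restrain translation, had ranges of 1.42 and 1.98 log2, with SAMD9 highest in A67 replicate 2 (9.18) and SAMD9L lowest in primary replicate 1 (7.91). IFI27 ranged over 1.29 log2 with its highest value, 8.26, in A95 replicate 2. XAF1, a promoter of apoptosis, and IFI35 ranged over 2.52 and 2.32 log2, with the lowest value of each in primary replicate 1.

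The likeness of each gene to the others was described by Pearson's r over the 14 arrays with the median deviation of the remaining genes, where the arrays are shared by all genes. It was 1.0 for IFI6 after rounding, 0.98 for IFI44L, 0.97 for IRF9, IFIT1 and XAF1, 0.84 for MX1, 0.79 for DDX58 and 0.71 for ISG15. The lowest were IFIT5 at 0.50, RSAD2 and OASL at 0.41, BST2 at 0.37, IRF7 and IFI27 at 0.34, HERC5 and SAMD9 at 0.31, and CMPK2 at -0.15.

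Arrays that share a label differed in these genes. Over all genes the median of replicate 2 minus replicate 1 lay between -0.06 and 0.06 in each label. In primary, replicate 2 exceeded replicate 1 in 36 of 37 genes, by a median of 1.74 log2, and by at least 1 log2 in 25 genes, where 1.71% of all genes did so. It lay at least 1 log2 below in 0 genes, against 0.718% of all genes. In A50, replicate 2 lay below replicate 1 in 35 genes, by a median of -0.74, and by at least 1 log2 in 12 genes, against 1.31% of all genes, and above by as much in 0, against 1.43%. IFITM1 differed by -2.94 there, IFI44L by -2.55 and IFIT1 by -2.23. In A95, replicate 2 exceeded replicate 1 in 35 genes, by a median of 0.80, and by at least 1 log2 in 13, against 3.22% of all genes, and lay below by as much in 0, against 4.38%. IFI44 differed by 2.68 there and IFITM1 by 2.36, while MX1 differed by 0.09. In B96, replicate 2 lay below replicate 1 in 28 genes and above in 9, with a median of -0.31. It lay at least 1 log2 below in 5 genes, against 2.85% of all genes, and above by as much in 0, against 4.3%, with IFI44 at -2.10 and HERC6 at -1.29. Within A39, A58 and A67 the medians were -0.13, -0.16 and -0.11, and the single genes past 1 log2 were MX1 in A39 (-1.04, where 1.32% of all genes stood that far below and 0.735% stood that far above) and SAMD9 in A67 (1.06, where 0.566% stood that far above and 0.354% that far below). In A58 it was 0 genes above and 0 below, against 1.64% and 1.37% of all genes.

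**Figure D4:**
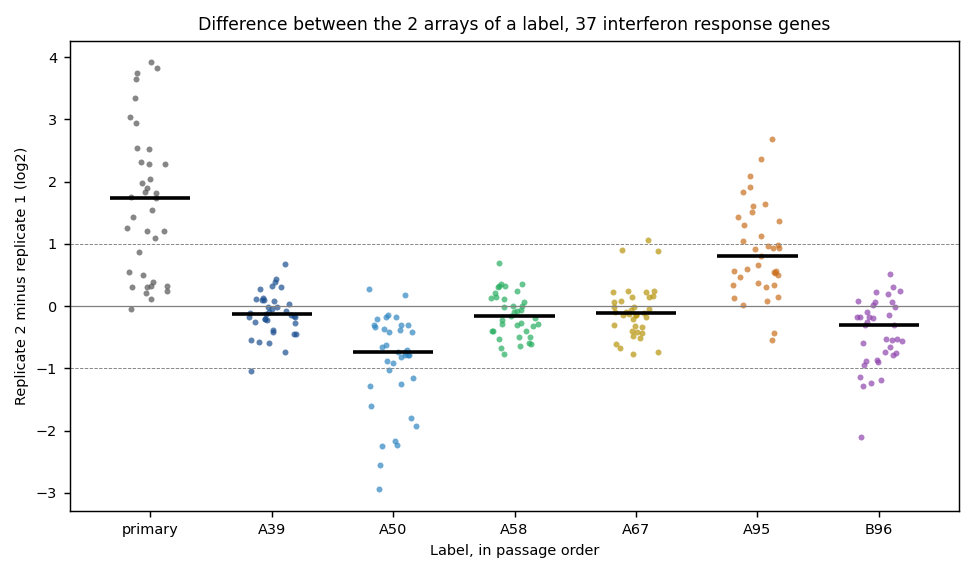
Replicate 2 minus replicate 1 (log2) for each of the 37 genes within each label, in passage order. The genes lie mostly above 0 in primary and A95 (medians 1.74 and 0.80) and mostly below 0 in A50 (median -0.74).

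A39, the earliest passage labelled hTERT, was compared with the arrays labelled primary, of which replicate 2 had TERT at the hTERT level. The A39 mean was the higher in 31 of 37 genes, with a median difference of 0.75 log2, where 55.9% of all genes were positive and their median was 0.035. IFIT1 averaged 10.86 ± 0.07 in A39 and 9.0 ± 2.58 in primary (SD, n = 2 each), a difference of 1.865 ± 1.01 (SE, adjusted p = 1). That difference was 3.69 without primary replicate 2 and 0.04 without primary replicate 1. In limma's test 0 of 37 genes passed after Benjamini-Hochberg adjustment over all rows, where 0% of rows passed, and at an unadjusted p under 0.05 it was 0 genes, against 1.2% of rows (0.7% positive and 0.502% negative). The median was 1.435 without primary replicate 2, whose TERT value goes against its label, and -0.165 without primary replicate 1, so the direction rests on primary replicate 1. Both A39 arrays exceeded both primary arrays in 3 genes, against 15% of all genes, and lay below both in 1, against 13.5%.

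All hTERT arrays together had a median difference from primary of -0.003, with 18 genes positive and 19 negative, where 57.1% of all genes were positive. The test called 0 of 37 genes and 0% of rows, and at an unadjusted p under 0.05 it was 0 genes, against 3.99% of rows (2.68% positive and 1.31% negative). That median was 0.688 without primary replicate 2 and -0.643 without primary replicate 1.

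The latest A passage was compared with the earliest. A95 was the lower in 29 of 37 genes and the higher in 8, with a median difference of -0.64, where 56.4% of all genes were higher in A95. Both A95 arrays lay below both A39 arrays in 19 genes, against 17.4% of all genes, among them DDX58 and MX1, and above both in 2, against 22.6%. The median was -0.36 without A95 replicate 1 and -0.96 without A95 replicate 2. In limma's test 0 of 37 genes and 0% of rows passed the adjustment, and 9 genes, all lower in A95, had an unadjusted p under 0.05, against 4.33% of rows in that direction, with 0 genes higher, against 4.88%. DDX58 averaged 8.14 ± 0.39 in A95 and 9.57 ± 0.30 in A39 (SD, n = 2 each), a difference of -1.43 ± 0.396 (SE, adjusted p = 0.528). MX1 averaged 6.36 ± 0.06 in A95 and 9.01 ± 0.74 in A39, a difference of -2.655 ± 0.89 (SE, adjusted p = 0.528). That SE also takes in the other labels' SDs, 2.36 in primary, 1.36 in A50, 0.01 in A58, 0.24 in A67 and 0.18 in B96. IFITM1 averaged 6.88 ± 1.67 in A95 and 10.18 ± 0.39 in A39, a difference of -3.295 ± 1.218 (SE, adjusted p = 0.528). The other 6 were IFIT1, IFIT2, IFIT3, PARP14, XAF1 and EPSTI1.

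The A95 arrays did not stand alike in this comparison. A95 replicate 1 lay at least 1 log2 below the lower A39 array in 17 genes, against 1.99% of all genes, and A95 replicate 2 in 4 genes, against 3.16%. Those 4 were IFITM1, IFIT1, IFIT3 and MX1. A95 replicate 2 lay at or above the lower A39 array in 16 genes, IFI44, HERC6, OAS1, OAS2 and OAS3 among them, where 65.4% of all genes did so, and A95 replicate 1 in 8, where 68.8% did. B96 replicate 1 lay at or above that array in 13 genes (64.7% of all genes) and at least 1 log2 below it in 7 (2.38%), and B96 replicate 2 at or above it in 5 (72.9%) and at least 1 log2 below it in 16 (0.463%).

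B96 was compared with A95 as hTERT B cells against hTERT A cells of nearly the same passage. B96 was the higher in 22 genes and the lower in 15, with a median difference of 0.025, where 48.7% of all genes were higher in B96. In limma's test 0 of 37 genes and 0% of rows passed the adjustment, and RSAD2 had an unadjusted p under 0.05, at -0.50 ± 0.199 (SE, adjusted p = 1), against 2.28% of rows (1.38% positive and 0.904% negative). RSAD2 read 5.73 to 6.52 over the 14 arrays, near or below the array means of blood and immune cell markers (6.45 to 6.78). Both B96 arrays exceeded both A95 arrays in 3 genes, against 9.64% of all genes, and lay below both in 4, against 9.95%. The median was 0.545 without A95 replicate 2, -0.395 without A95 replicate 1, 0.25 without B96 replicate 2 and -0.105 without B96 replicate 1.

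Across all 7 groups, limma's F test called 0 of 37 genes and 0% of rows, and DDX58 was the 1 gene with an unadjusted p under 0.05, against 4.62% of rows.

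Over the 10 arrays labelled A, the slope per 10 passages was negative in 28 of 37 genes, with a median of -0.087 log2, where 56.2% of all genes were positive and their median was 0.01. The median slope was -0.376 on passages 39 to 67 alone, and -0.175 per step where passages were replaced by their ranks. In limma's test 0 of 37 genes passed the adjustment, against 0.281% of rows. At an unadjusted p under 0.05 it was 14 genes, all negative, against 8.83% of rows in that direction, with 0 genes positive, against 9.89%. PARP14 had a slope of -0.243 ± 0.044 (SE, adjusted p = 0.0531), DDX58 of -0.261 ± 0.058 (adjusted p = 0.0762), IFIT3 of -0.251 ± 0.062 (adjusted p = 0.095) and IFITM1 of -0.554 ± 0.226 (adjusted p = 0.229). PARP14 passed the threshold under 9 other settings of the trend, which are given with the processing alternatives, and not as fitted here. The median slope was -0.199 without A95 replicate 2 and -0.056 without A39 replicate 1. PARP14 averaged 9.97 ± 0.07 in A39, 9.81 ± 0.24 in A50, 9.35 ± 0.28 in A58, 8.88 ± 0.13 in A67 and 8.70 ± 0.33 in A95 (SD, n = 2 each). HERC6 and OAS1, high again in A95 replicate 2, had slopes of -0.083 ± 0.131 and -0.031 ± 0.098.

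The lists of upstream genes had medians per array with a smaller span. The 16 interferon ligand genes measured spanned 0.42 log2 in this median, against 1.43 for the 37 response genes, although 10 of the 16 had a range of at least 1 log2 themselves, with a median range of 1.08. IFNB1, the interferon that fibroblasts are known for, read 5.38 to 6.47, with 6.47 in B96 replicate 1 and at most 5.76 elsewhere. With blood and immune cell markers averaging 6.45 to 6.78 per array and no detection calls, these values do not show whether IFNB1 was expressed. Receptors, kinases and STATs spanned 0.30 log2 over 11 genes, with IFNAR1 between 9.49 and 10.22, IFNAR2 between 7.62 and 8.41, JAK1 between 10.92 and 11.52 and TYK2 between 8.96 and 9.59. Of their slopes in the A trend, 7 were negative and 4 positive, and 0 of the 11 genes passed limma's test after adjustment. At an unadjusted p under 0.05 it was 6 of the 11, all negative, against 8.83% of rows in that direction. In A95 versus A39 it was 3 of the 11, all lower in A95, against 4.33% of rows. Negative regulators spanned 0.19 log2 over 14 genes and nucleic acid sensing genes 0.25 over 19. In the sensing list TICAM1, the adaptor of the endosomal RNA receptor, read 7.18 in A95 replicate 2 and 7.32 in B96 replicate 1, and 8.52 to 9.12 in the other arrays.

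Other interferon-induced genes had smaller deviations. Their medians per array ran from -0.39 in primary replicate 1 to 0.29 in primary replicate 2 over 47 genes. APOL6, an apolipoprotein L gene, ranged from 6.77 to 9.71. In the A trend 38 of the 47 slopes were negative with a median of -0.064, and CASP1, an inflammatory protease, was the 1 gene called, at -0.234 ± 0.037 per 10 passages (SE, adjusted p = 0.045), where 0.281% of all rows were called. With 1 array left out, the trend called 0 rows for 7 of its 10 arrays, A95 replicate 2 among them, so this call was lost in those fits. Genes of interferon-gamma and antigen presentation ran from -0.48 to 0.29 over 22 genes, and PSMB9, an immunoproteasome subunit, from 7.14 to 10.24.

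**Figure D5:**
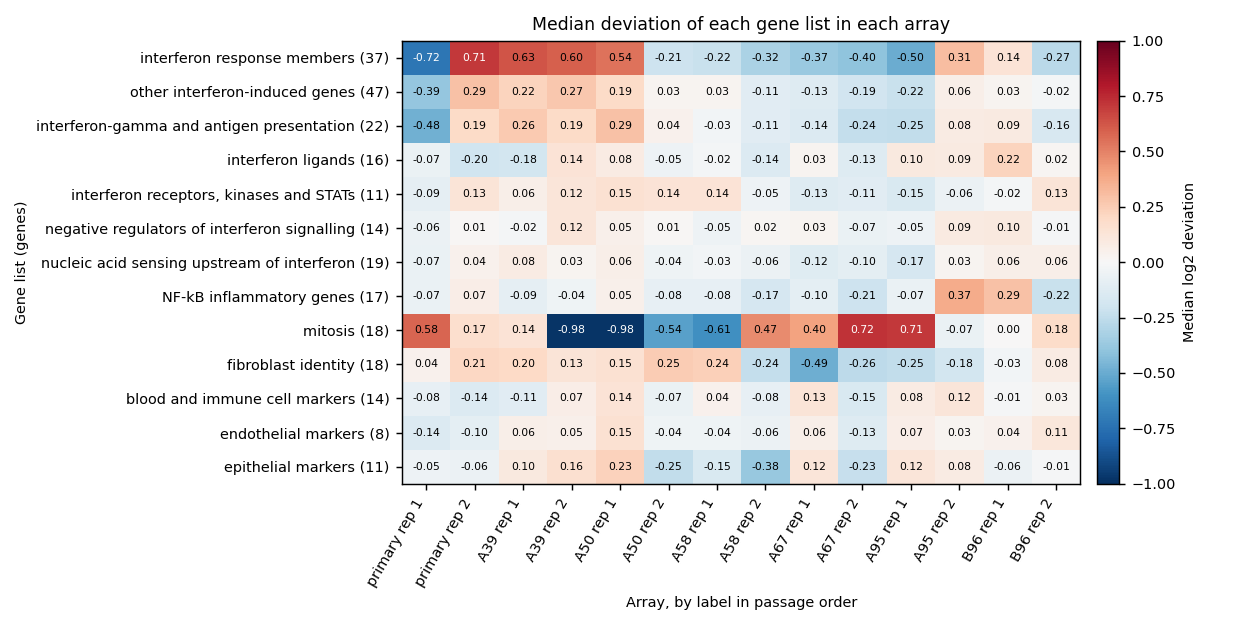
Median deviation (log2) of the 37 interferon response genes and of other gene lists in each array, in passage order. The 37 genes span 1.43 log2, against 0.68 for other interferon-induced genes and 0.30 for receptors, kinases and STATs, and the mitosis genes are lowest in A39 replicate 2 and A50 replicate 1 (-0.98 in both).

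Mitosis genes had medians of 0.14 and -0.98 in A39 replicates 1 and 2, -0.98 and -0.54 in A50, and 0.71 in A95 replicate 1. IL6, an inflammatory cytokine, read 10.61 in primary replicate 2, 10.29 and 11.06 in A39, 11.08 in A50 replicate 1, 10.54 in A95 replicate 2 and 10.56 in B96 replicate 1, and at most 7.96 in the other arrays. IL6 does not stand for its list of 17 NF-kB inflammatory genes, whose medians per array ran from -0.22 to 0.37. In the A trend 13 of those 17 slopes were positive and 4 negative. The part of the mitosis genes or of IL6 in the interferon response values was not tested.

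Among genes other than the 37, those with the most similar values were taken from all genes with a range of at least 1 log2. Pearson's r with the median deviation of the 37 genes over the 14 arrays was 0.96 for RAB29 and CTSC, 0.953 for TRIM69, 0.929 for SLC2A1, 0.918 for IGDCC3, 0.914 for DDX60, 0.912 for PCK2 and 0.903 for IL6-AS1, TNFRSF19 and SECTM1. DDX60 is 1 of the 47 other interferon-induced genes above.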

How the data were processed

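Biological duplicates of WI-38 RNA, isolated with TRI reagent, were hybridised to Affymetrix whole-transcript gene arrays, per the labels' protocols. The authors deposited 1 table of log2 values for 14 arrays and 28869 rows, to 2 decimals. The log base was read from the range of 0 to 14.27, and no source used here gives the background correction or normalization. The table has no detection calls, so genes that were not expressed cannot be told from weakly expressed ones. Narrow ranges at low values, such as RSAD2 at 5.73 to 6.52 and HERC5 at 5.51 to 6.52, carry that limit. The number of arrays limits the precision.

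Rows were named from the platform annotation: 19310 rows had 1 symbol (19279 matched by gene ID to RefSeq), 1752 several and 7807 none. DDX58 was matched by gene ID. Values were used unfiltered. Group means over all arrays were estimated by limma (version 3.58.1, R version 4.3.3), with 7 residual degrees of freedom and 3.43 from the prior. Two-sided p-values took the Benjamini-Hochberg adjustment across all rows, with a threshold of 0.05. The trend was fitted to the 10 A arrays. The fits were tested on simulated data.

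The members and lists were chosen with earlier results of these data known. All members may be named, and array values are given in full for the 10 with the largest range and the widest of each role. From other lists up to 4 genes with the largest range may be named, with the 10 most similar other genes. Alternatives were fits without single arrays, a block for the replicate number, other scalings, filters, row choices, priors, weights and trend fits. Replicate numbers did not pair the arrays: over 21 pairs of labels the correlation of same-numbered deviations ran from -0.529 to 0.196.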

Additional observations from a re-analysis of the deposited data

How the results depend on the processing

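With single arrays left out, medians moved and in 3 comparisons changed sign. Without 1 array, the median of the 37 genes ran from -0.165 to 1.435 in A39 versus primary, from -0.643 to 0.688 in hTERT versus primary, from -0.96 to -0.36 in A95 versus A39, from -0.395 to 0.545 in B96 versus A95 and from -0.199 to -0.056 per 10 passages in the trend. The rows called ran from 0 to 6, 0 to 10, 0 to 4, 0 to 3 and 0 to 571 in the same order, with 0 of the 37 genes called each time. The trend called 571 rows without A95 replicate 1, and A39 versus primary 6 and hTERT versus primary 10 without primary replicate 2. In hTERT versus primary, 1 row was called after quantile normalization and 1 with array weights, and in A95 versus A39 2 rows when only those groups were fitted. The trend called 81 rows and 0 of the 37 genes. It called 159 rows and 1 gene after quantile normalization, 429 and 2 after centring on array medians, 271 and 1 with dim rows filtered at the 30th percentile, 174 and 1 with 1 row per gene, 172 and 1 with the mean of a gene's rows, 132 and 1 with an intensity trend and robust prior, 2171 and 13 with array weights, 489 and 3 on ranks of passage (median slope -0.175 per rank) and 729 and 2 with passage as a random block. The fit with a random block estimated a correlation of -0.164 between arrays of a passage, where such a block is meant for arrays that are alike. On passages 39 to 67 the trend called 0 rows, with a median slope of -0.376. PARP14 was among the genes called in each of these with a call, with adjusted p from 0.0154 to 0.0493. The cause was not tested. With the replicate number as a block, the median in A39 versus primary was 0.75 and the block changed no call. Each comparison of groups is limited by its duplicate arrays, and the arrays of a label were not the most alike.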
